A study of Mus musculus with 2 samples.

Results

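The genes described here encode non-collagen glycoproteins and proteoglycans of the extracellular matrix. They were selected by name, as 41 genes of elastic fibres, matricellular proteins, small leucine-rich proteoglycans, basement membrane and tendon matrix, from a table of 34745 Ensembl genes. All 41 had a row in the table, and 35 reached a summed count of 20 over both libraries, the minimum used for a ratio. RNA was sequenced from whole gastrocnemius muscle of 8-week-old C57BL/6 mice, in 1 CIPC-scko library (written scKO here) and 1 CIPC-flox/flox library (written flox/flox). In flox/flox mice the Cipc gene, which encodes an inhibitor of the clock factors CLOCK and BMAL1, is flanked by loxP sites. The series title describes a deletion in satellite cells, the stem cells of muscle. The labels name neither the Cre driver nor pooling of animals, and although the title speaks of mdx mice, no label of these libraries says mdx.

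Collagen fibrils give muscle connective tissue its strength, and the proteins considered here organise the space around them. Fibrillin microfibrils carry elastin and hold growth factors of the TGF-β family in store. Small leucine-rich proteoglycans bind collagen fibrils and set their diameter. Nidogens and perlecan join laminin to collagen IV in the basement membrane that wraps each myofibre and holds satellite cells in place. Matricellular proteins such as SPARC, periostin, tenascins and thrombospondins bear little load and modulate how cells meet the matrix. In muscle much of this RNA comes from fibro-adipogenic progenitors, which are mesenchymal cells between the fibres, and from tenocytes, endothelial cells and Schwann cells. In whole muscle, fewer cells of a type and less RNA per cell cannot be told apart.

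The libraries held 13842100 counts (scKO) and 14727219 counts (flox/flox), and mitochondrially encoded genes took 25.7% of each. Myofibre genes identified the tissue, with 341106 counts of the skeletal actin gene Acta1 in scKO and 369713 in flox/flox. Cipc had 111 counts in scKO and 658 in flox/flox, a log2 ratio of −2.51. Every ratio below is scKO over flox/flox after scaling by the trimmed mean of M values (TMM). With 1 library per genotype there is no replicate check: the values compare these libraries, not the genotypes, and no p-value is given. Brackets hold 95% exact intervals that cover counting error only.

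Taken as a set, the matrix genes were modestly lower in the scKO library. The 41 genes had 14725 counts in scKO, 0.106% of the library, and 17456 counts in flox/flox, 0.119% of the library. The log2 ratio of these sums was −0.19 (−0.23 to −0.16), and without Sparc it was −0.12 (−0.15 to −0.09). Among the 35 genes with a ratio, 25 ratios were negative and 10 positive, and the median was −0.12, beside 0.0021 over all 12662 genes with at least 20 counts. The interval lay below a ratio of 1 for 13 of the 35 (37.1%), against 12.3% of all genes, and above it for 4 (11.4%), against 12.8% of all genes. Among genes with at least 200 summed counts, where intervals are narrower, it lay below 1 for 10 of 23 members (43.5%) and 14.3% of all genes. Above 1 it lay for 3 of the 23 (13.0%) and 16.1% of all genes. The share of members with lower counts in scKO was above the background, and the share with higher counts was near it or below. Because the members were chosen with earlier results of these data known, these shares describe the list and test nothing.

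Most of the differences were small. At least 1.5-fold lower in scKO, with an interval below 1, were Fbn1, Mfap4, Matn2 and Cilp2, 4 of 35 members (11.4%) beside 4.09% of all genes. At least 1.5-fold higher was Kera, 1 of 35, beside 3.44% of all genes. Mfap4, Cilp2 and Kera rested on 30 counts or fewer per library. Sparc lay just short of that threshold, 1.499-fold lower. When library totals replaced TMM, all log2 ratios moved up by 0.038 and the intervals of Hspg2, Mfap4 and Smoc2 came to include 1, which left 10 members below and 4 above. The shares of all genes were then 9.70% below and 16.6% above.

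**Figure D1:**
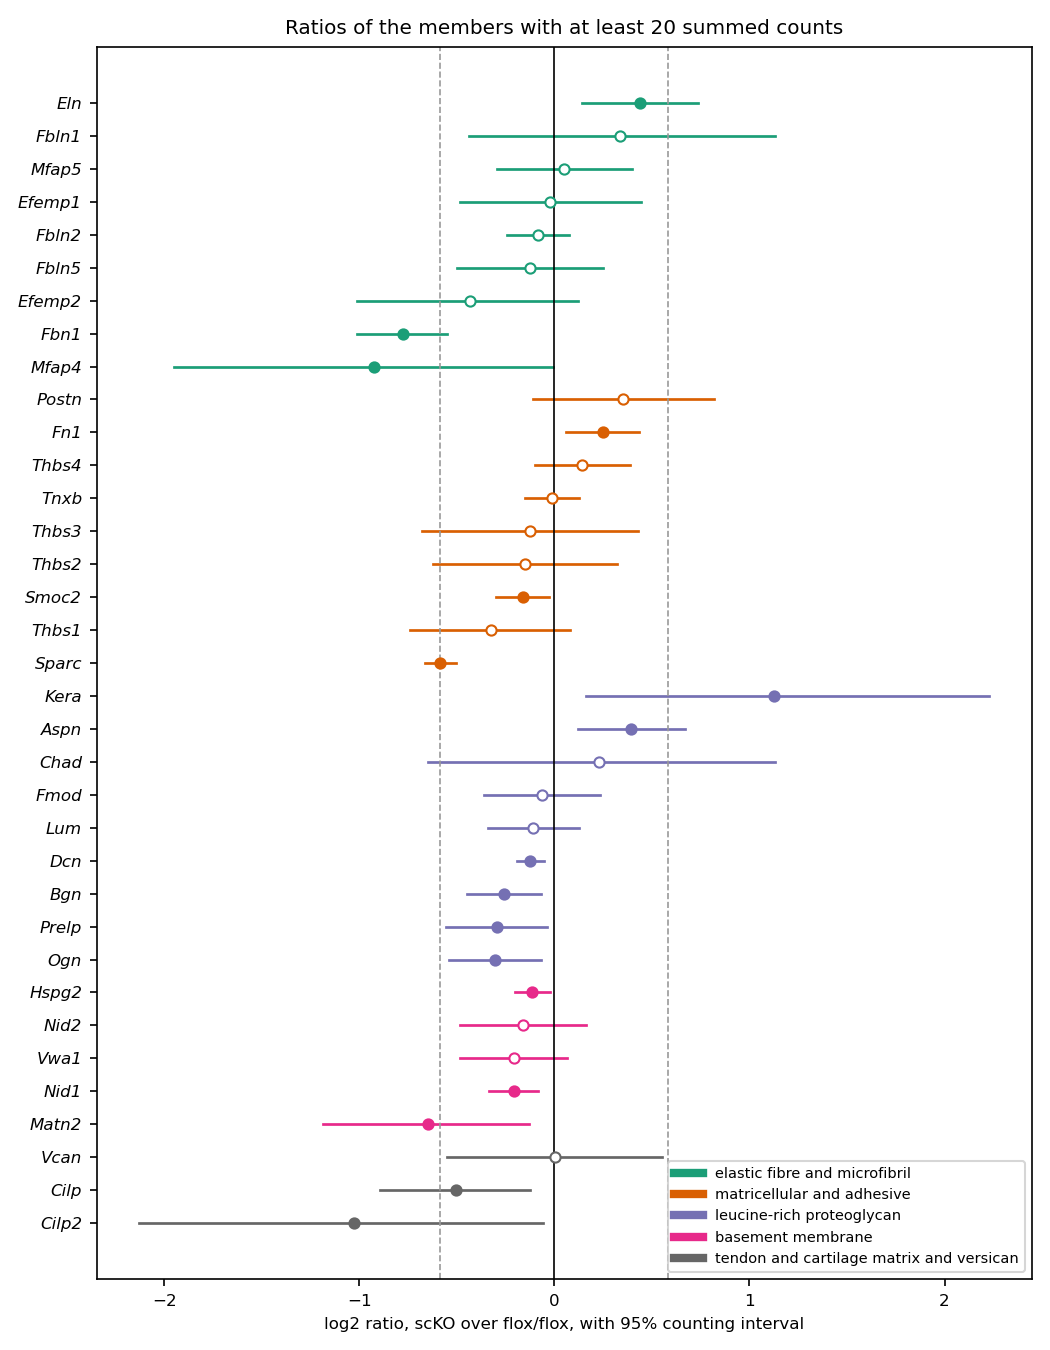
Log2 ratio of scKO over flox/flox for the 35 genes with at least 20 summed counts, coloured by group, with 95% counting intervals as bars. Filled points have intervals that leave out 0 (13 to the left, 4 to the right), and dashed lines mark 1.5-fold.

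The level of a gene relative to others can be read only per length, for which the deposited FPKM values (fragments scaled by gene length and library size) were used. Decorin RNA was the most abundant in both libraries, with 113 FPKM in scKO and 120 FPKM in flox/flox. Sparc followed at 33.6 FPKM in scKO and 49.1 FPKM in flox/flox, and Smoc2 was the third at 21.2 FPKM in scKO and 23.2 FPKM in flox/flox. These 3 genes made up 63.4% of the summed FPKM of the 41 genes in scKO and 65.3% in flox/flox. The leucine-rich proteoglycans held 56.8% in scKO and 53.8% in flox/flox, while the matricellular group, which holds Sparc, had 26.7% in scKO and 29.6% in flox/flox. The elastic fibre genes held 5.79% in scKO and 5.59% in flox/flox, and the basement membrane genes 10.1% in each.

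At the low end, Fbn2, which encodes the mainly fetal fibrillin 2, had 0 counts in both libraries, which allows up to 0.214 CPM (counts scaled to library size) in scKO and 0.206 CPM in flox/flox. Tenascin C (Tnc), a matricellular protein induced on injury, had 6 counts in scKO and 5 in flox/flox. The deposited lengths enter these levels. For 12 of the 35 genes they exceeded 1.5 times the principal transcript of GENCODE M21, among them Bgn, Postn (3.79 times) and Vcan (8.62 times). Counted over principal transcripts, biglycan ranked as the 4th gene of the set in both libraries, against rank 15 by FPKM. Decorin, Sparc and Smoc2 kept ranks 1, 2 and 3 on both scales. Group shares moved as well. Over principal transcripts the elastic fibre genes held 8.29% in scKO and 7.56% in flox/flox, and the basement membrane genes 8.09% and 7.96% in that order. Sparc then held 18.5% in scKO and 23.9% in flox/flox.

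**Figure D2:**
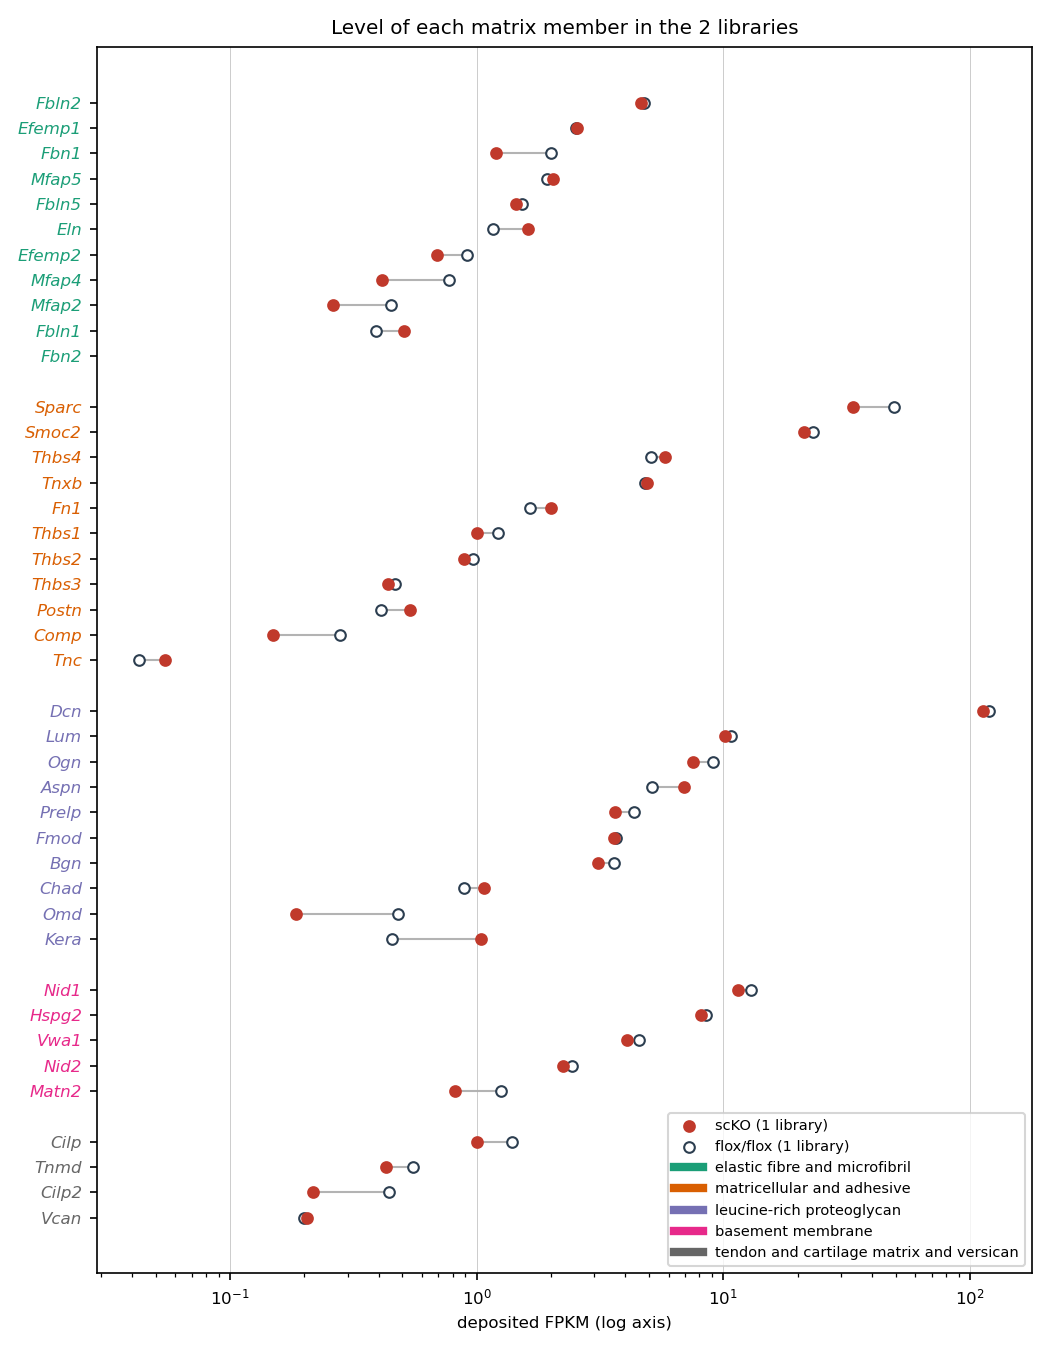
Deposited FPKM (log axis) of each gene in the scKO library (filled) and the flox/flox library (open), by group. Levels run from 0.0547 FPKM in scKO and 0.0428 FPKM in flox/flox for Tnc to over 100 for Dcn, and Fbn2, listed at 0, has no point.

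Among elastic fibre and microfibril genes, fibrillin 1 was lower and elastin higher in the scKO library. Fbn1 (ENSMUSG00000027204, GRCm38 chromosome 2, 125300594 to 125507993, minus strand), the main subunit of microfibrils, had 244 counts in scKO and 434 in flox/flox. Its log2 ratio was −0.78 (−1.01 to −0.55), and 85 of the 7978 genes with at least 200 counts had a lower one. Eln (chromosome 5, 134702593 to 134747323, minus strand), which encodes tropoelastin, had 217 counts in scKO and 166 in flox/flox, a log2 ratio of 0.44 (0.14 to 0.74). Scaling does not enter the ratio of both genes within a library: there were 0.889 Eln counts per Fbn1 count in scKO and 0.382 in flox/flox, 2.33 times as many (1.79 to 3.03). Eln and Fbn1 had the highest and the lowest log2 ratio among members with at least 200 counts. A quotient of these extremes was bound to lie far from 1 and adds no support.

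The other elastic fibre genes differed little or had few counts. Mfap4, a microfibril-associated glycoprotein that binds elastin, had 15 counts in scKO and 30 in flox/flox (log2 ratio −0.93, −1.95 to −0.01). It shares 89 exon bases, 4.63% of its exons, with Mapk7 on the opposite strand, which had 14 counts in scKO and 71 in flox/flox, and the strand setting of the counting is not given in the sources used here. The elastin-assembly proteins fibulin 4 (Efemp2) and fibulin 5 (Fbln5) had 47 and 116 counts in scKO, against 66 and 131 in flox/flox, with intervals that include 1. So did those of Fbln2, at 624 counts in scKO and 686 in flox/flox, and of Efemp1, at 79 and 83 in that order. Mfap5, which encodes the microfibril glycoprotein MAGP2, had 142 counts in each library. Fbln1 had 33 counts in scKO and 27 in flox/flox, and Mfap2, with 6 and 11 in that order, was too sparse for a ratio. Over the 9 genes with a ratio the median was −0.09, 2 intervals lay below 1 (22.2%) and 1 above (11.1%). The shares of all genes were 12.3% and 12.8%.

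The RefSeq promoter windows of Fbn1 and Sparc are shown because these 2 had the lowest ratios among members with at least 200 counts. Sequences are from RefSeq on GRCm38.p6, given 5′ to 3′ on the gene's strand from 250 bases before to 50 after the annotated start. Further GENCODE transcripts of both genes begin upstream of these starts. Promoters were found in the table for 28 of the 41 genes. Capitals mark matches on either strand to 6 short motifs: the E-box CACGTG, which CLOCK and BMAL1 can bind, the GC box GGGCGG of Sp factors, the TATA box TATAAA, the CCAAT box CCAAT, the AP-1 element TGANTCA and the repeat GGAGGAGG.
Fbn1, chr2:125506389-125506688, minus strand: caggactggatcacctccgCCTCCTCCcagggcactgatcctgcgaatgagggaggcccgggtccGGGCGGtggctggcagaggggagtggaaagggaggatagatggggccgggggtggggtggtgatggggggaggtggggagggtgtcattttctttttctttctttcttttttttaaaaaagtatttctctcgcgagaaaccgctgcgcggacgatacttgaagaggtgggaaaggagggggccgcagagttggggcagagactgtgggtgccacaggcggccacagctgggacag
Sparc, chr11:55420031-55420330, minus strand: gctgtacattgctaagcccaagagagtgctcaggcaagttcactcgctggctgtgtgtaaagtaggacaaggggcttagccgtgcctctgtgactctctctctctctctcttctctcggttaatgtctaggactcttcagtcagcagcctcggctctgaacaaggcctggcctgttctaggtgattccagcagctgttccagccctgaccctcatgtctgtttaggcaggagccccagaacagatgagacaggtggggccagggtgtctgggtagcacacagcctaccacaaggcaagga

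The Fbn1 window held 1 GC box and 1 GGA repeat, and the Sparc window held none of the 6 motifs. Of the members' 35 promoters, 19 (54.3%) held the GC box, beside 35.7% of all 32851 promoters of the same length. The E-box CACGTG was in 2 of the 35 (5.71%), both starts of Fbln1, and in 7.15% of all promoters. The TATA box was in 7 of the 35 and in 13.6% of all, the CCAAT box in 11 (31.4%) and 37.4%, the AP-1 element in 2 (5.71%) and 7.81%, and the GGA repeat in 4 (11.4%) and 8.89%. These are matches of letters only.

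In the matricellular and adhesive group, Sparc stood apart by its number of counts. SPARC is a collagen-binding glycoprotein that acts in collagen deposition. Sparc (ENSMUSG00000018593, chromosome 11, 55394500 to 55423183, minus strand) had 2058 counts in scKO and 3197 in flox/flox, a log2 ratio of −0.58 (−0.66 to −0.50). It made up 12.7% of the members' summed FPKM in scKO and 16.7% in flox/flox. Its relatives differed less between the libraries. Smoc2, a SPARC-related calcium-binding protein of basement membranes, had 833 counts in scKO and 966 in flox/flox (−0.16, −0.30 to −0.03). Sparcl1, the closest relative of Sparc and not among the 41, had 2609 counts in scKO and 2651 in flox/flox (0.03, −0.05 to 0.11). Sparc counts per Sparcl1 count were 0.789 in scKO and 1.21 in flox/flox, a quotient of 0.654 (0.605 to 0.707), and per Smoc2 count 2.47 in scKO and 3.31 in flox/flox, a quotient of 0.747 (0.669 to 0.833). Sparc was singled out by its low ratio, and Sparcl1 was added after its value was seen. These quotients largely restate the ratio of Sparc and add no support.

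Fibronectin moved the other way. Fn1 (chromosome 1, 71585520 to 71653200, minus strand), whose product is an adhesive protein bound by integrins, had 502 counts in scKO and 438 in flox/flox, a log2 ratio of 0.25 (0.06 to 0.44). Periostin (Postn), a product of activated fibroblasts, had 90 counts in scKO and 73 in flox/flox, with an interval from −0.11 to 0.82. Tenascin X (Tnxb), whose loss in humans gives a form of Ehlers-Danlos syndrome, was nearly equal, with 835 counts in scKO and 873 in flox/flox (−0.01, −0.15 to 0.13).

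For none of the thrombospondins did the interval leave out 1. Thbs4, found in tendon and muscle, had 291 counts in scKO and 273 in flox/flox, an interval from −0.10 to 0.39. Thbs1, which can activate latent TGF-β, had 90 counts in scKO and 117 in flox/flox (−0.74 to 0.08). Thbs2 had 73 in scKO and 84 in flox/flox, and Thbs3 54 and 61 in that order. The cartilage oligomeric matrix protein gene Comp, a further thrombospondin, had 5 counts in scKO and 10 in flox/flox and received no ratio.

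The small leucine-rich proteoglycans split in direction. Decorin, the main one of muscle, was slightly lower: Dcn (chromosome 10, 97479609 to 97518143, plus strand) had 3264 counts in scKO and 3685 in flox/flox (log2 ratio −0.12, −0.19 to −0.06). Biglycan, its close relative, had 414 in scKO and 513 in flox/flox (Bgn, −0.26, −0.45 to −0.07). Osteoglycin had 266 in scKO and 340 in flox/flox (Ogn, −0.30, −0.54 to −0.07), and Prelp, which anchors collagen to basement membrane, 224 and 285 in that order (−0.30, −0.56 to −0.04). These 4 had intervals below 1.

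Asporin and keratocan had intervals above 1. Asporin, which binds collagen and TGF-β, had 251 counts in scKO and 198 in flox/flox (Aspn, 0.39, 0.12 to 0.67). Keratocan, a keratan sulphate proteoglycan known from cornea and tendon, had 28 counts in scKO and 13 in flox/flox (Kera, 1.13, 0.16 to 2.23). Lumican (Lum, 293 counts in scKO and 327 in flox/flox), fibromodulin (Fmod, 182 and 197 in that order) and chondroadherin (Chad, 25 and 22) had intervals that include 1. Osteomodulin (Omd) had 4 counts in scKO and 11 in flox/flox, too few for a ratio. Over the 9 genes with a ratio the median was −0.11. Intervals lay below 1 for 44.4% of them and above 1 for 22.2%, beside 12.3% and 12.8% of all genes.

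Several of these genes lie in clusters, and some neighbours differed in direction. On chromosome 13, plus strand, Aspn (49544443 to 49567565), Omd (49582462 to 49592822) and Ogn (49608046 to 49624501) follow each other, with 40480 bp between Aspn and Ogn. There were 0.944 Aspn counts per Ogn count in scKO and 0.582 in flox/flox, 1.62 times as many (1.26 to 2.09). On chromosome 10, Kera lies 34175 bp beyond Lum, and Kera counts per Lum count were 0.0956 in scKO and 0.0398 in flox/flox, 2.40 times as many (1.18 to 5.15). Lum counts per Dcn count were 0.0898 in scKO and 0.0887 in flox/flox, a quotient of 1.01 (0.855 to 1.20). On chromosome 1, Fmod counts per Prelp count were 0.813 in scKO and 0.691 in flox/flox (quotient 1.18, 0.892 to 1.55). In all, 19 pairs of neighbours or relatives were compared in this way, partly chosen with the values known, and 6 intervals left out 1. The promoters of Aspn and Ogn are shown because these neighbours had opposite directions.
Aspn, chr13:49544193-49544492, plus strand: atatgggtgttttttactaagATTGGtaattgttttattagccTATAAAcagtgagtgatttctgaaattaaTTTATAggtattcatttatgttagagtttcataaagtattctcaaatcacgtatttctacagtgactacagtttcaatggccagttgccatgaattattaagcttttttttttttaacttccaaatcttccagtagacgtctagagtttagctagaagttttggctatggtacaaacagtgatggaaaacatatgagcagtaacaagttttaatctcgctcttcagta
Ogn, chr13:49607765-49608064, plus strand: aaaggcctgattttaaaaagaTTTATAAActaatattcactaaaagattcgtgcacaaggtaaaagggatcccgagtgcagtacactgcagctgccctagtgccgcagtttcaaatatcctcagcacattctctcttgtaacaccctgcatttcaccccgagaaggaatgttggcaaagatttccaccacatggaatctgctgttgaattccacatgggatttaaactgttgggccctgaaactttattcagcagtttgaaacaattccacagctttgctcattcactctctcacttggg

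Each of these windows held the letters of the TATA box on both strands, far upstream of the annotated start. In Aspn the matches begin at −207 and −178, and in Ogn at −229 and −227, where they overlap each other. Aspn also held 1 CCAAT box on the opposite strand. Neither window held a GC box or an E-box.

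All 5 basement membrane and pericellular genes had ratios below 1, and 3 intervals left out 1. Of all 12662 genes with at least 20 counts, 6280 had ratios below 1, and 12.3% had intervals below 1. With library totals in place of TMM, the interval of Hspg2 included 1. Nidogen 1 (Nid1, chromosome 13, 13437551 to 13512269, plus strand), which links laminin to collagen IV, had 962 counts in scKO and 1152 in flox/flox (log2 ratio −0.21, −0.33 to −0.08). Perlecan (Hspg2), the heparan sulphate proteoglycan of this layer, had 1871 counts in scKO and 2097 in flox/flox (−0.11, −0.20 to −0.02). Matrilin 2 (Matn2), a filament-forming adaptor, had the lowest ratio of the group, with 51 counts in scKO and 83 in flox/flox (−0.65, −1.18 to −0.13). Nidogen 2 (Nid2, 151 counts in scKO and 175 in flox/flox) and the perlecan-binding Vwa1 (204 and 244 in that order) had intervals that include 1. Nid1 and Nid2 kept nearly the same proportion, with 6.37 Nid1 counts per Nid2 count in scKO and 6.58 in flox/flox (quotient 0.968, 0.761 to 1.23).

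Of the remaining tendon and cartilage genes, both cartilage intermediate layer proteins were lower. Cilp, which can bind TGF-β, had 97 counts in scKO and 143 in flox/flox (−0.51, −0.90 to −0.13). Its relative Cilp2 had 13 counts in scKO and 28 in flox/flox (−1.03, −2.13 to −0.06). Versican (Vcan), the large hyaluronan-binding proteoglycan, had 57 counts in scKO and 59 in flox/flox (0.0014, −0.55 to 0.55). Tenomodulin (Tnmd), a membrane protein that defines tenocytes, had 8 counts in scKO and 11 in flox/flox and received no ratio.

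**Figure D3:**
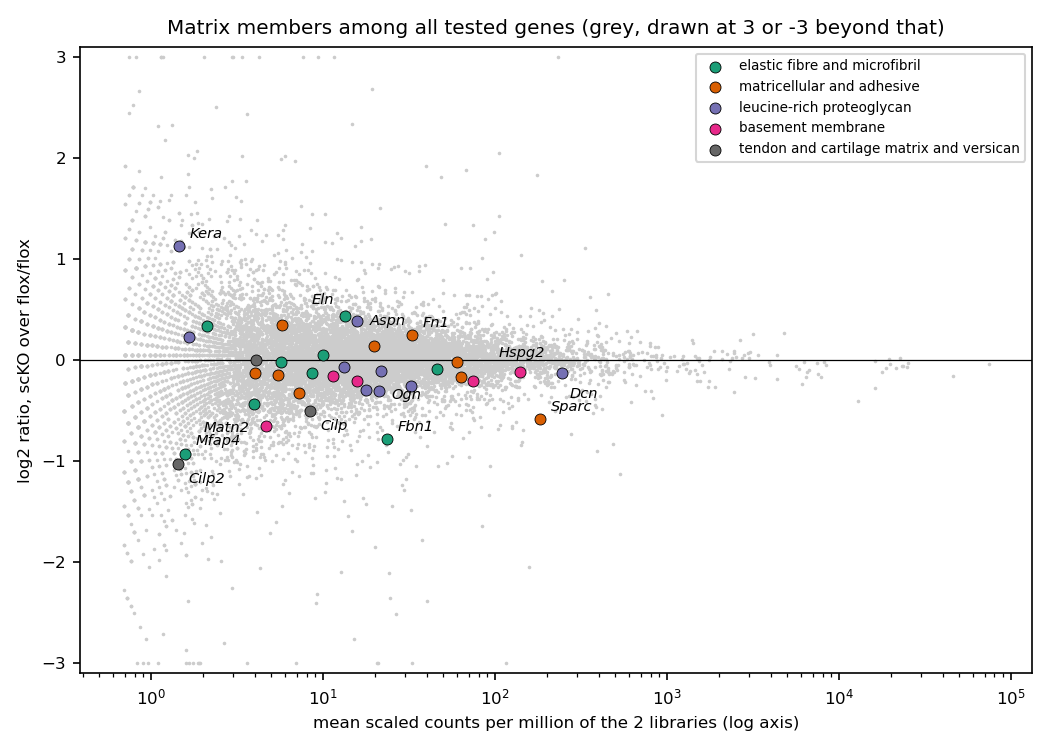
Log2 ratio of scKO over flox/flox against the mean level in scaled CPM (log axis) for all 12662 genes with at least 20 counts (grey) and the 35 matrix genes (coloured by group). Sparc, at 147 CPM in scKO and 220 CPM in flox/flox, and Fbn1 lie low for genes of their level, while Kera, Mfap4 and Cilp2 lie in the wide cloud of sparse genes.

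The members' differences stood beside a lower level of collagens. Of 13 collagen genes of fibrillar, network and other types, 11 (84.6%) had intervals below 1 and none above, with a median log2 ratio of −0.43. Of all genes with at least 20 counts, 12.3% had intervals below 1 and 12.8% above. The same shares apply to the lists that follow. Their counts summed to 8056 in scKO and 11283 in flox/flox, a log2 ratio of −0.43 (−0.48 to −0.39). The largest differences were those of Col3a1 (1470 counts in scKO and 2335 in flox/flox, −0.62), Col15a1 (385 and 588 in that order, −0.56), Col5a2 (253 and 385, −0.55) and Col6a2 (599 and 864, −0.48). The collagens' log2 ratios ran from −0.62 to −0.09. Fbn1 (−0.78) lay below that range and Sparc (−0.58) near its lower end. The upper end was Col12a1 alone, on 28 counts in scKO and 31 in flox/flox (−0.89 to 0.69). The next collagen was Col14a1 at −0.27. Dcn (−0.12), Lum (−0.11) and Hspg2 (−0.11) thus lay above every collagen but Col12a1.

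Other matrix glycoproteins outside the set showed no common direction. Of 32 with a ratio, 3 intervals lay below 1 and 3 above, and the median was −0.08. Emilin2, of the elastin microfibril interface, had 38 counts in scKO and 87 in flox/flox (−1.13, −1.73 to −0.58). Nephronectin (Npnt), an integrin ligand, had 104 in scKO and 167 in flox/flox (−0.63), and the secreted fibrinogen-like protein gene Fgl2 163 and 111 in that order (0.60). Vitronectin (Vtn) stood at −0.38. The remaining intervals above 1 were those of Egflam (551 counts in scKO and 472 in flox/flox, 0.27) and Hmcn1 (35 and 13 in that order, 1.44). Of 13 other proteoglycans, 3 had intervals below 1 and none above, with a median of −0.20: the cell surface heparan sulphate carriers Gpc1 (2991 counts in scKO and 3405 in flox/flox, −0.14), Sdc2 (244 and 336 in that order, −0.41) and Sdc1 (19 and 47, −1.23).

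Genes of glycosaminoglycan synthesis mostly had ratios close to 1. Their list includes the sulphatases Sulf1 and Sulf2 and the sulphate transporter Slc26a2. Of 31 with a ratio, 3 intervals lay below 1 and 1 above, and the median was −0.05. Named by the rule for this list were the sulphotransferases Chst15 (51 counts in scKO and 78 in flox/flox, −0.56) and Hs6st1 (438 and 526 in that order, −0.21), with Extl3 (−0.15) and Csgalnact2 (0.17). Of 12 matrix receptors, 4 had intervals above 1 and 1 below, with a median of 0.06. Dag1, which encodes dystroglycan, a receptor for laminin and perlecan, had 2926 counts in scKO and 2328 in flox/flox (0.38, 0.30 to 0.46). Cd47, a thrombospondin receptor, stood at 0.38 and the integrin subunit Itgav, which serves fibronectin and vitronectin, at 0.21. The hyaluronan receptor Cd44 had 43 counts in scKO and 68 in flox/flox (−0.60).

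Some markers of fibro-adipogenic progenitors were also lower in scKO. Of 12 markers, 5 (41.7%, beside 12.3% of all genes) had intervals below 1 (Pdgfra, Cd34, Clec3b, Cd55 and Gsn), none above, and 7 that include 1. Scara5 (0.11), Pi16 (0.08) and Dpep1 (0.06) had positive log2 ratios among those 7. All 12 markers summed to 676 CPM in scKO and 745 CPM in flox/flox, and none of the 12 was at 0. Of these sums, Gsn alone gave 469 CPM in scKO and 508 CPM in flox/flox, so they mostly reflect Gsn. Pdgfra, which encodes the defining receptor of these progenitors, had 178 counts in scKO and 252 in flox/flox (−0.45). Members per marker count depended on the markers used. Per count of all 12 markers, the 41 matrix genes together had 1.55 counts in scKO and 1.61 in flox/flox, a quotient of 0.962 (0.929 to 0.997). Per count of the 11 markers other than the abundant Gsn, they had 5.06 counts in scKO and 5.09 in flox/flox, a quotient of 0.995 (0.942 to 1.05). Per Pdgfra count alone they had 82.7 in scKO and 69.3 in flox/flox, a quotient of 1.19 (0.981 to 1.46), and without Sparc 71.2 in scKO and 56.6 in flox/flox, a quotient of 1.26 (1.03 to 1.53). With the larger marker sets, the quotients without Sparc were 1.01 (0.977 to 1.05) for all 12 markers and 1.05 (0.991 to 1.11) for 11. Both of these intervals include 1. Decorin had quotients of 1.01 (0.956 to 1.07) with 12 markers, 1.04 (0.975 to 1.12) with 11 and 1.25 (1.02 to 1.54) with Pdgfra. With the 11 markers, Sparc had 0.707 in scKO and 0.932 in flox/flox (quotient 0.759, 0.704 to 0.818) and Fbn1 0.0838 in scKO and 0.126 in flox/flox (0.663, 0.560 to 0.784), and with all 12 the quotients were 0.734 (0.690 to 0.781) for Sparc and 0.641 (0.545 to 0.754) for Fbn1. Against Pdgfra alone the quotients of Sparc and Fbn1 were 0.911 (0.743 to 1.12) and 0.796 (0.617 to 1.03), with intervals that include 1. These denominators were chosen after the values were seen, and the part of the progenitors in the members' ratios was not tested.

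Markers of other cell types varied in direction. Of 8 tenocyte markers with a ratio, 1 interval lay below 1, that of the member Cilp2, and 2 above. Those above were the intervals of the member Kera and of Col11a1 (17 counts in scKO and 5 in flox/flox). All 12 listed markers, Egr1 among them, summed to 69.4 CPM in scKO and 67.7 CPM in flox/flox. Tenocyte markers that are not members summed to 30.0 CPM in scKO and 29.6 CPM in flox/flox. Of this, Egr1 alone gave 26.7 CPM in scKO and 26.6 CPM in flox/flox, so the sums say little about the other markers. Scx, which encodes the tendon factor scleraxis, had 28 counts in scKO and 26 in flox/flox. Mkx was at 0 in scKO and at 4 counts in flox/flox. Of 10 endothelial markers, 4 (40%, beside 12.8% of all genes) had intervals above 1 and none below, with sums of 484 CPM in scKO and 420 CPM in flox/flox. Of 10 smooth muscle and pericyte markers, 2 lay below 1 and 2 above (757 CPM in scKO and 731 CPM in flox/flox). Of 8 Schwann cell and perineurium markers, 2 lay below and 1 above (87.3 and 93.2 CPM in the same order), and of 10 macrophage markers, 1 below and 2 above (51.5 and 47.1 CPM).

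Satellite cell markers were mixed. Of 8, 5 log2 ratios were positive and the median was 0.11, with 2 intervals below 1, those of Pax7 and Myod1, and 1 above, that of Des (0.04), which encodes desmin and is also abundant in myofibres. Pax7 had 39 counts in scKO and 69 in flox/flox, and Myod1 130 in scKO and 201 in flox/flox. Myf5 had 34 counts in scKO and 23 in flox/flox, and Cdh15 230 in scKO and 211 in flox/flox, with intervals that include 1. Of 10 myofibre genes, 8 had intervals below 1 and 1 above, beside 14.3% and 16.1% of all genes with at least 200 counts. Intervals of such abundant genes are narrow: Myh2 counted as below at −0.02, and Myh1 lay above at 0.27. The median of the myofibre genes was −0.08. Summed, they stood at 123922 CPM in scKO and 135070 CPM in flox/flox, a log2 ratio of −0.12. Of the 2 chondrocyte markers with a ratio, 1 interval lay below 1, and the whole list summed to 7.13 CPM in scKO and 10.5 CPM in flox/flox, with Acan, Matn1 and Matn3 at 0 in both libraries. None of these lists other than that of the progenitors was set against the members, and their part in the members' ratios was not tested.

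**Figure D4:**
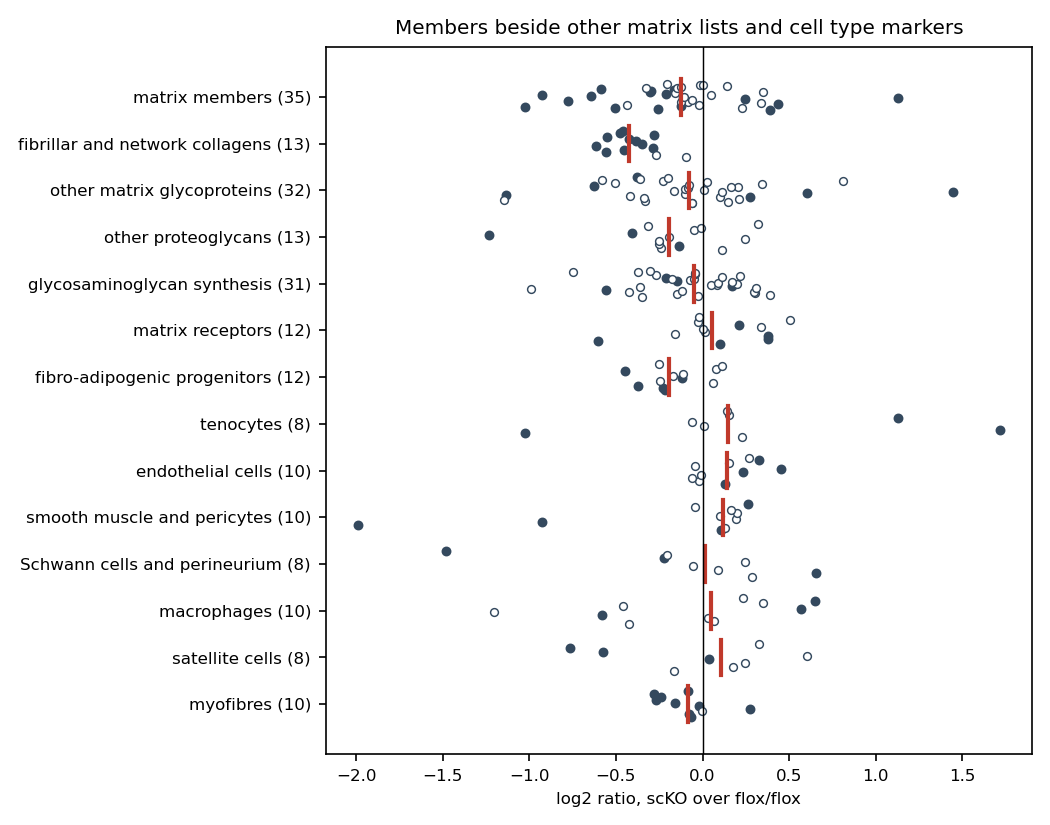
Log2 ratio of scKO over flox/flox for the 35 matrix genes and for genes with at least 20 summed counts in other matrix lists and marker lists (number in brackets). Filled points have counting intervals that leave out 0 and red bars are medians, −0.12 for the matrix genes, −0.43 for collagens and 0.14 for endothelial markers.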

How the data were processed

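The deposited gene counts are whole numbers, per the file headers 1 column per library, in a header that joins both names in 1 cell. The columns were read in the order of the names there, and with that order counts and FPKM matched in each library. The deposited FPKM values were made by the authors, and for the 35 members with a ratio they imply the same gene length in both libraries to within 0.1%. CASAVA, HISAT2 2.0.4, StringTie 1.3.0 and build GRCm38 are listed, without their roles, per the submitters' processing notes. The annotation release, counting options and strand setting are not given in the sources used here. A reference table named 34267 of the 34745 identifiers, and positions came from GENCODE M21 (GRCm38). Of the members, 15 share exon bases with a gene on the opposite strand, and for 6 of these (Efemp2, Mfap4, Thbs3, Aspn, Nid2 and Vwa1) that gene had at least 20 counts.

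Counts were scaled by TMM in edgeR 4.0.16 (R 4.3.3). Log2 ratios used a prior count of 0.5, and intervals were 95% Clopper-Pearson intervals of the conditional binomial, which cover counting error only. Genes with at least 20 summed counts received a ratio. 0 counts were taken to allow up to 3. Ratios between genes within a library were compared by conditional odds ratios. Python 3.11.15, scipy 1.17.1, pandas 2.3.3 and matplotlib 3.10.9 were used, and the interval code was tested on simulated data. The alternatives were library totals, DESeq2 size factors, TMM without mitochondrially encoded genes, other count minimums, a prior count of 5, both FPKM scales and a GC and length correction. A quasi-likelihood test could not be fitted to 1 library per genotype. Members with an interval leaving out 1 were named with it, others by their counts, and up to 4 genes per further list with at least 100 counts and the largest ratios. Further genes were named after their values were seen, namely Sparcl1, Sdc1, Egflam, Hmcn1, Col12a1, Col14a1, single markers and the rest of the pairs. The members and lists were chosen with earlier results of these data known.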

Additional observations from a re-analysis of the deposited data

How the results depend on the processing

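No paired analysis was possible because each genotype has 1 library. The median log2 ratio of the members lay between −0.14 and −0.06 under all 9 alternatives, and the medians of the elastic fibre, matricellular, leucine-rich and basement membrane groups were negative under each. All alternatives reuse the same libraries, so these signs are no replicate check. Single ratios lay on both sides of 0 in the elastic fibre (−0.93 to 0.44), matricellular (−0.58 to 0.35) and leucine-rich (−0.30 to 1.13) groups. The log2 ratio of the summed counts, −0.19, was −0.15 with library totals and −0.15 on both FPKM scales, where it is a ratio of summed FPKM. It was not computed with the correction for transcript GC and length, which was added after the data were seen. The counts of members at least 1.5-fold lower and higher, 4 and 1, were 2 and 0 with a minimum of 100 summed counts, since Mfap4, Cilp2 and Kera then drop out. They were 0 and 0 on log2(FPKM + 1), a scale that shrinks the ratios of low genes, where Fbn1 stood at −0.45 and Cipc at −1.58. On both FPKM scales members were counted by fold alone, without the interval condition of the other settings. With library totals Mfap4 was no longer counted, which left 3, and on log2(FPKM + 0.1) Matn2 (−0.56) was not, which also left 3, and Sparc was counted with DESeq2 size factors (DESeq2 1.42.0) and with the GC and length correction. Of the members' single ratios under the alternatives, 309 stayed inside their counting interval and 1, that of Fbn1, did not. Depth limits genes such as Omd, Comp, Tnc, Mfap2 and Tnmd, which had at most 11 counts per library.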
